A study of Arabis alpina with 12 samples.

Results

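V3 buds were compared with main shoot apices of 1 line of Arabis alpina, Aatoe2_IL, in the 6 libraries of that line among the 12 of the series. Arabis alpina is a perennial relative of Arabidopsis thaliana. All plants were of the accession Pajares, had been grown for 8 weeks in long days and had then spent 8 weeks of vernalization, a cold treatment, in short days. The groups were Aatoe2_IL V3 buds, Aatoe2_IL dissected shoot apices, wild-type V3 buds and wild-type dissected shoot apices, with 3 libraries each. Buds had been taken to follow axillary branch development and apices to follow flowering during vernalization. Aatoe2_IL is named for AaTOE2, a gene for an APETALA2-like (AP2-like) factor, and the series used it to study what that gene does. The sources used here do not give its lesion, and no other line affected in this gene was sampled, so that AaTOE2 and other differences of the line cannot be told apart. The labels number the replicates without saying that they came from separate plants, and p-values therefore measure the spread between these samples, which may be technical.

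In Arabidopsis, AP2-like proteins repress flowering, and SPL transcription factors promote it in the shoot. Floral meristem and organ genes such as AP1 act once flower primordia form. Axillary buds can stay dormant or grow out into branches, and abscisic acid, auxin and cytokinin are known to take part in that choice. In perennial Arabis alpina only some shoots flower after cold, and other axillary meristems stay vegetative.

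The 6 libraries held between 9411616 and 11402861 reads in genes, with 15.4% to 19.0% of reads outside genes in buds and 16.6% to 21.1% in apices. Levels are given as CPM, read counts scaled to library size. The first principal component of the 6 libraries (51.5% of the variance) separated buds from apices, and the second (20.9%) separated replicate 1 of both tissues from replicates 2 and 3. Replicate 1 was the lowest library in both tissues for all 15 named heat shock genes and all 9 named clock genes, against 18.3% of all genes tested, and replicate 2 was the highest in both tissues for all 9 clock genes, against 16.2%. HSFA2, a heat shock factor gene, had 31.6 CPM in bud replicate 1 against 209 and 285 CPM in the others, and 24.4 CPM in apex replicate 1 against 256 and 293 CPM in the others. Same-numbered bud and apex libraries deviated together, so that the replicate number was taken as pairing them. Values with the number as a block, from the fit of 12 libraries unless stated, are given wherever they change a call. The median absolute difference of called genes between same-numbered libraries was 0.81 on the log2 scale in replicate 1, 1.01 in replicate 2 and 1.06 in replicate 3.

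Of 19520 genes tested, 1107 (5.67%) passed edgeR's quasi-likelihood test at a Benjamini-Hochberg adjusted p under 0.05 between Aatoe2_IL V3 buds and apices. Higher in buds were 619 genes (3.17%; median log2 fold change 0.98), and lower were 488 (2.5%; median -1.04). The median over all genes tested was -0.01. At least 2-fold changes were held by 563 of these genes (2.88%), 301 higher and 262 lower, and at least 4-fold changes by 118 and 75. With the replicate block 2378 genes passed, among them all 1107, of which 1353 were higher and 1025 lower in buds. The bud and apex libraries were fully separate in 1100 of these 1107, where 22.7% of all tested genes were. All 1107 differed in the same direction in 3 of 3 same-numbered pairs, for which no share over all genes was taken. Both counts only describe the called genes, since the calls were made on the same libraries. Without apex replicate 2, bud replicate 3 or apex replicate 3 of Aatoe2_IL, 629, 650 and 651 genes passed. By level, 5.69% of the 650 genes with a mean under 1 CPM were called, 7.95% of the 5110 from 1 to 10 CPM, 5.02% of the 11463 from 10 to 100 CPM and 3.87% of the 2297 at 100 CPM or more.

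**Figure D1:**
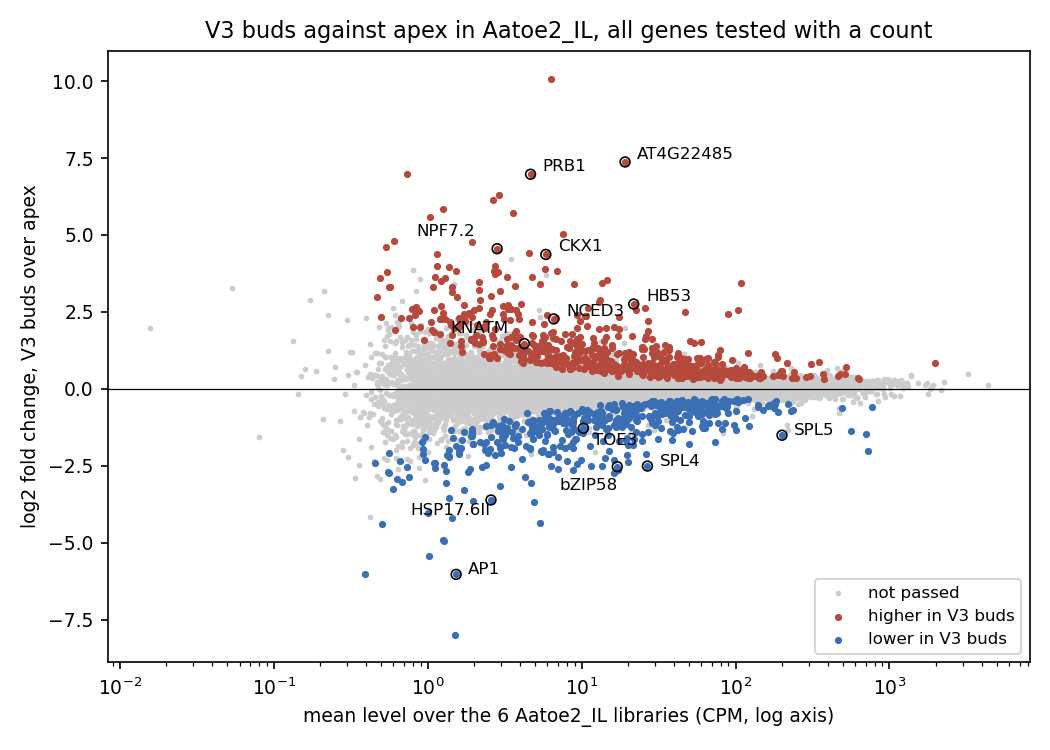
Fitted log2 fold change of V3 buds over apex in Aatoe2_IL (vertical) against the mean CPM of the 6 libraries (horizontal, log axis) for the genes tested that had a count there. Red points (619) passed as higher and blue points (488) as lower in V3 buds. Fitted values of genes with 0 to 3 counts in a group, such as AP1, depend on the prior count.

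Only 441 of the tested genes could be named, because names were paired with identifiers only in the authors' lists of genes that differed between Aatoe2_IL and wild type. Of these, 103 (23.4%) were called between the tissues, 62 higher and 41 lower in buds. That share is not independent of the comparison, since the authors chose the genes on libraries that include the 6 used here. Of 592 distinct genes in lists of known function, 96 had a name and 95 were tested, of which 11 were higher and 12 lower in buds. Counts per list below are read with the same limit. Those with the replicate block stand against 2378 of all 19520 genes tested.

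Among the 4 named SPL genes, out of 11 in the list, SPL4, SPL5 and SPL10 fell in V3 buds and SPL3 rose. The median log2 fold change of the 4 was -1.27. SPL4 (Aa_G381970h1) had 6.24, 9.95 and 7.65 CPM in buds, against 44.8, 46.8 and 45.3 CPM in apices. Every bud library lay far below every apex library, and the log2 fold change was -2.51 (adjusted p = 3.66e-05 by edgeR, SE 0.25). SPL5 (Aa_G1050h1) had 77.3, 142 and 93.3 CPM in buds, against 242, 347 and 302 CPM in apices, a log2 fold change of -1.51 (adjusted p = 0.000989 by edgeR, SE 0.23). SPL10 (Aa_G61880h1) had 38.6, 45.4 and 37.9 CPM in buds, against 64.8, 98.4 and 86.7 CPM in apices, a log2 fold change of -1.03 (adjusted p = 0.000684 by edgeR, SE 0.15). Neither gene overlapped between tissues, and for both the lowest apex library was replicate 1. SPL3 (Aa_G438780h1) moved the other way, with 6.24, 3.13 and 6.67 CPM in buds, against 2.35, 2.04 and 1.90 CPM in apices. Its log2 fold change was 1.33 (adjusted p = 0.0336 by edgeR, SE 0.35), and the call was lost without each Aatoe2_IL library except bud replicate 2, with adjusted p up to 0.161.

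TOE3 (Aa_G165870h1), an AP2-like gene and the only named one of 17 floral repressor genes, was lower in buds. It had 6.35, 6.82 and 4.70 CPM in buds, against 10.2, 20.3 and 13.3 CPM in apices. The tissues did not overlap, and the log2 fold change was -1.28 (adjusted p = 0.00891 by edgeR, SE 0.26). The call was lost without bud replicate 3 or apex replicate 2 (adjusted p = 0.0541 and 0.0546). AP1 (Aa_G283230h1), which specifies floral meristems, was nearly absent from buds. It had 1 count in all bud libraries, in replicate 2, against 95 counts in apices, where it stood at 2.52, 4.38 and 2.19 CPM. That is 86.6-fold lower in buds (exact 95% interval 15.2 to 3456, counting error only; edgeR, adjusted p = 0.000458), and its size rests on that single count. Without bud replicate 2, the library that held this count, the fitted log2 fold change was -8.0 in place of -6.03. VIN3, which takes part in the memory of cold, did not pass and overlapped fully, with 7.10, 18.9 and 35.4 CPM in buds, against 11.0, 21.4 and 28.1 CPM in apices. In bulk tissue, fewer cells of a type and less RNA per cell cannot be told apart for any of these genes.

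Of 4 named floral organ genes, CRC and UFO were lower in buds and SHP2 and AGL6 did not pass, with a median log2 fold change of -1.17. CRC (Aa_G690520h1), active in carpels and nectaries, had 17.42, 23.2 and 25.03 CPM in buds, against 31.1, 36.3 and 48.8 CPM in apices. The log2 fold change was -0.82 (adjusted p = 0.0138 by edgeR, SE 0.18), and the call was lost without bud replicate 1 or apex replicate 3 (adjusted p = 0.0615 and 0.0860). UFO (Aa_G355720h1), which encodes an F-box protein and acts in floral patterning, had 9.14, 10.7 and 6.78 CPM in buds, against 19.6, 15.7 and 14.9 CPM in apices. Both genes kept the tissues apart in every library. The log2 fold change of UFO was -0.91 (adjusted p = 0.010 by edgeR, SE 0.19), and its adjusted p was 0.0564 without bud replicate 3. AGL6 (Aa_G15980h1), a MADS-box gene, had 2.37, 7.39 and 8.53 CPM in buds, against 6.09, 23.2 and 19.9 CPM in apices. Replicate 1 was lowest in both tissues, so that the groups overlapped, although each bud library lay below the apex library of its number. The log2 fold change was -1.42 (edgeR, adjusted p = 0.0940), and with the replicate block the adjusted p was 7.67e-05. SHP2, a carpel MADS-box gene, stood at 0.430, 0.379 and 0.547 CPM in buds and at 1.04, 1.84 and 1.52 CPM in apices, without overlap (edgeR, adjusted p = 0.0694).

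**Figure D2:**
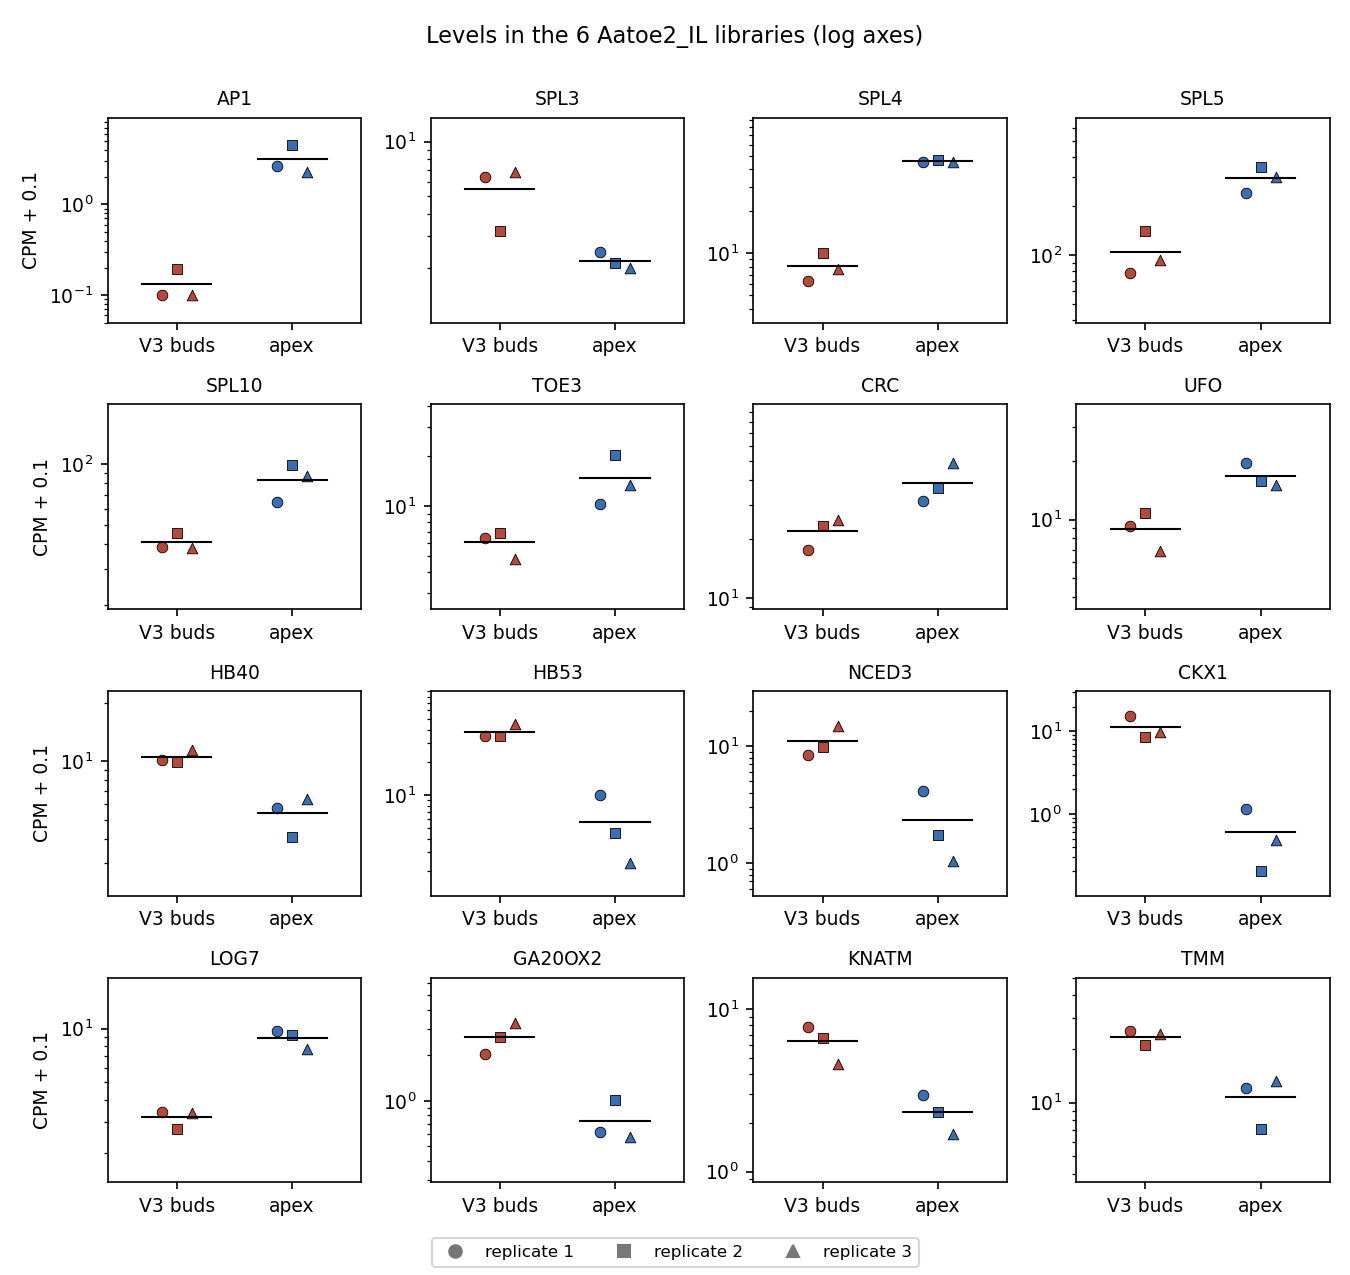
Levels of 16 named genes in the 3 V3 bud libraries (red, left) and the 3 apex libraries (blue, right) of Aatoe2_IL, as CPM plus 0.1 on log axes that differ between panels. Symbols mark the replicate number and lines the group mean. All 16 genes were chosen among those that passed, and in no panel do the tissues overlap. The same held for 1100 of all 1107 called genes and for 22.7% of all genes tested. SPL4 averages 7.94 CPM in buds and 45.6 CPM in apices, HB53 38.1 and 5.56 CPM.

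Of 5 named genes on branching and bud dormancy, 3 rose in V3 buds and none fell, with a median log2 fold change of 0.96. These are HB53, HB40 and NCED3, which in Arabidopsis act below the branching repressor BRC1. HB53 (Aa_G147020h1), a homeobox gene, had 34.5, 34.7 and 45.04 CPM in buds, against 9.997, 4.38 and 2.29 CPM in apices. Its log2 fold change was 2.75 (adjusted p = 0.000143 by edgeR, SE 0.32), and 3.52 without apex replicate 1, the highest apex library. HB40 (Aa_G223150h1), a related homeobox gene, had 10.002, 9.76 and 11.4 CPM in buds, against 5.65, 3.98 and 6.28 CPM in apices. The log2 fold change was 0.96 (adjusted p = 0.00646 by edgeR, SE 0.19), smaller than that of HB53 but equally free of overlap. NCED3 (Aa_G56170h1), a rate-limiting enzyme of abscisic acid synthesis, had 8.39, 9.76 and 14.8 CPM in buds, against 4.09, 1.63 and 0.952 CPM in apices. It rose by 2.27 on the log2 scale (adjusted p = 0.00712 by edgeR, SE 0.45), and by 3.08 without apex replicate 1. Without replicate 3 of both tissues NCED3 rose by 1.64 and its call was lost (edgeR, adjusted p = 0.141). The dark-inducible gene SEN1 and the dormancy-associated gene DRM2 did not pass. SEN1 stood at 18.5, 23.7 and 16.4 CPM in buds and at 17, 9.48 and 6.95 CPM in apices, with a log2 fold change of 0.81 (edgeR, adjusted p = 0.0799, and 0.00498 with the replicate block). DRM2 stood at 302, 248 and 573 CPM in buds and at 266, 169 and 389 CPM in apices, with a log2 fold change of 0.44 (edgeR, adjusted p = 0.614, and 0.0143 with the block). For both genes each bud library was above the apex library of its number. All 5 genes passed with the block, where 2378 of all 19520 genes tested did.

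The 2 named cytokinin genes moved in opposite directions. CKX1 (Aa_G188410h1), a cytokinin oxidase that breaks the hormone down, had 15.4, 8.52 and 9.73 CPM in buds, against 1.04, 0.102 and 0.381 CPM in apices. It rose by 4.37 on the log2 scale (adjusted p = 3.45e-05 by edgeR, SE 0.42), and by 5.44 without apex replicate 1. LOG7 (Aa_G414840h1), which activates cytokinins, had 3.33, 2.65 and 3.28 CPM in buds, against 9.56, 9.07 and 7.62 CPM in apices. It fell by 1.5 (adjusted p = 0.00346 by edgeR, SE 0.27), with no overlap between tissues. Of the 2 named gibberellin genes, GA20OX2 (Aa_G598100h1), a synthesis enzyme, rose by 2.0 (adjusted p = 0.00320 by edgeR, SE 0.35). Its level was 1.94, 2.56 and 3.1699 CPM in buds, against 0.522, 0.918 and 0.476 CPM in apices. GA2OX4, a breakdown enzyme, did not pass and overlapped, at 2.90, 3.13 and 2.30 CPM in buds and 3.3, 1.02 and 2.19 CPM in apices.

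None of the 3 named auxin genes passed, and their median log2 fold change was 1.1. At an unadjusted p under 0.05, 3159 of all genes tested differed. PIN3, an auxin efflux carrier, stood at 11.2, 5.11 and 10.7 CPM in buds and 6.35, 2.45 and 2.67 CPM in apices (log2 fold change 1.21, edgeR, adjusted p = 0.0616). The auxin-conjugating GH3.17 had a log2 fold change of 1.1 (edgeR, adjusted p = 0.0689), with 5.27, 5.97 and 6.12 CPM in buds and 2.26, 1.73 and 4.09 CPM in apices. BRU6, the same gene as GH3.2, had one of 0.72 (edgeR, adjusted p = 0.281). All 3 auxin genes were higher in buds in every same-numbered pair, and with the replicate block their adjusted p was 0.000704, 0.0154 and 0.00432. In the abscisic acid list NCED3 passed and the other 5 named members did not, with a median log2 fold change of 1.5. HAI2, a phosphatase gene induced by the hormone, stood at 3.33, 2.37 and 4.37 CPM in buds and 1.13, 0.816 and 0.857 CPM in apices, without overlap (log2 fold change 1.82, edgeR, adjusted p = 0.0576). RD22, LTI78 (also RD29A) and LTI65 (also RD29B), which respond to dehydration, had log2 fold changes of 0.64, 0.56 and 2.55. With the block, HAI2, RD22, LTI78 and LTI65 passed as higher in buds (adjusted p = 0.00629, 0.000561, 0.00452 and 0.0172). RAB18, a dehydrin gene, passed neither without the block nor with it in 12 libraries, but did with it in the 6 Aatoe2_IL libraries alone (edgeR, adjusted p = 0.0334). It spread over 5.59 to 62.3 CPM in buds and 3.57 to 18.4 CPM in apices.

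KNATM (Aa_G777300h1), a relative of KNOX meristem factors, was the only one of 3 named meristem and boundary genes to pass. It had 7.74, 6.54 and 4.48 CPM in buds, against 2.87, 2.24 and 1.62 CPM in apices, a log2 fold change of 1.47 (adjusted p = 0.00249 by edgeR, SE 0.25). AS2, which acts in leaf patterning, and LSH9 did not pass, with log2 fold changes of 0.46 and 0.42, and LSH9 had 5 counts in buds and 4 in apices. Outside the lists, and chosen after their values were seen, 3 named TCP genes of the class that restrains growth of leaf margins were higher in buds. TCP4 (Aa_G1290h1) had 43.7, 33.1 and 55.1 CPM in buds, against 19.8, 12.7 and 17.2 CPM in apices (log2 fold change 1.4, edgeR, adjusted p = 0.000723). The gene listed as tcp10 (Aa_G561790h1) had 28.8, 29.7 and 39.6 CPM in buds, against 11.5, 10.1 and 8.28 CPM in apices (log2 fold change 1.71, edgeR, adjusted p = 8.74e-05). TCP24 (Aa_G538600h1) had 40.4, 40.3 and 47.8 CPM in buds, against 22.9, 16 and 17.2 CPM in apices (log2 fold change 1.19, edgeR, adjusted p = 0.000294). In all 3 the lowest bud library was above the highest apex library. Also chosen in this way, ZPR2, a small leucine zipper protein that acts on meristem factors, fell by 1.87 (adjusted p = 0.000427 by edgeR, SE 0.26), with 6.24, 5.30 and 2.95 CPM in buds, against 12.6, 23.2 and 17.5 CPM in apices. DOT5, a zinc finger gene, fell by 2.12 (SE 0.31), and the blue-light receptor gene PHOT1, likewise chosen, rose by 1.94 (adjusted p = 0.00878 by edgeR, SE 0.40). The call of PHOT1 was lost without apex replicate 3, and its log2 fold change was 2.81 without apex replicate 1.

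Of 15 named heat shock genes, HSP17.6II and HSP18.2, which encode small chaperones, were lower in buds and none was higher. The median log2 fold change was -0.85. HSP17.6II (Aa_G233050h1) had 0.108, 0.568 and 0.437 CPM in buds, against 2.0, 5.40 and 6.95 CPM in apices (log2 fold change -3.62, SE 0.63, edgeR, adjusted p = 0.00280). HSP18.2 (Aa_G620130h1) had 1.61, 4.26 and 3.72 CPM in buds, against 5.56, 13.3 and 18.19 CPM in apices (log2 fold change -1.93, SE 0.40, edgeR, adjusted p = 0.00885). Its call was lost without apex replicate 3 (adjusted p = 0.0568). HSP90.1, a chaperone gene, stood at 47.8, 159 and 167 CPM in buds and 70.2, 402 and 466 CPM in apices, and did not pass (edgeR, adjusted p = 0.324). The factor HSFA7A stood at 3.76, 59.7 and 70.6 CPM in buds and 4.87, 168 and 189 CPM in apices (edgeR, adjusted p = 0.576). Replicate 1 was far below the others in both tissues, while each bud library was below the apex library of its number. With the replicate block 9 of the 15 passed, where 2378 of all 19520 genes tested did. All 9 were lower in buds, among them HSP90.1 (edgeR, adjusted p = 1.25e-05) and HSFA7A (5.70e-05). HSP101 has 2 copies in the table (Aa_G639700h1 and Aa_G639700h2) that may share reads, and both are counted in the 15 and among the 9. HSFA2, at the levels given above, passed in neither fit.

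No clock or cold response gene with a name passed between the tissues. None of 9 named clock genes passed, also with the block in the fit of 12 libraries, and their median log2 fold change was 0.20. With the block in the 6 Aatoe2_IL libraries alone, PRR9 and LNK4 passed (edgeR, adjusted p = 0.0283 and 0.0315). CCA1, a morning clock factor, stood at 11.2, 83.7 and 43.0 CPM in buds and at 5.82, 81.9 and 33.3 CPM in apices, so that replicates differed more than tissues. LHY, its close relative, stood at 59.5, 126 and 59.7 CPM in buds and at 38.9, 120.5 and 54.7 CPM in apices. None of 6 named cold response genes passed (median log2 fold change 0.27), and with the block LTI78 did. With the block in the 6 Aatoe2_IL libraries alone, ERD10 did too (edgeR, adjusted p = 0.0277). KIN2, a cold-induced gene, stood at 1373, 2058 and 1917 CPM in buds and at 1163, 1864 and 1872 CPM in apices (log2 fold change 0.13, edgeR, adjusted p = 0.842).

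**Figure D3:**
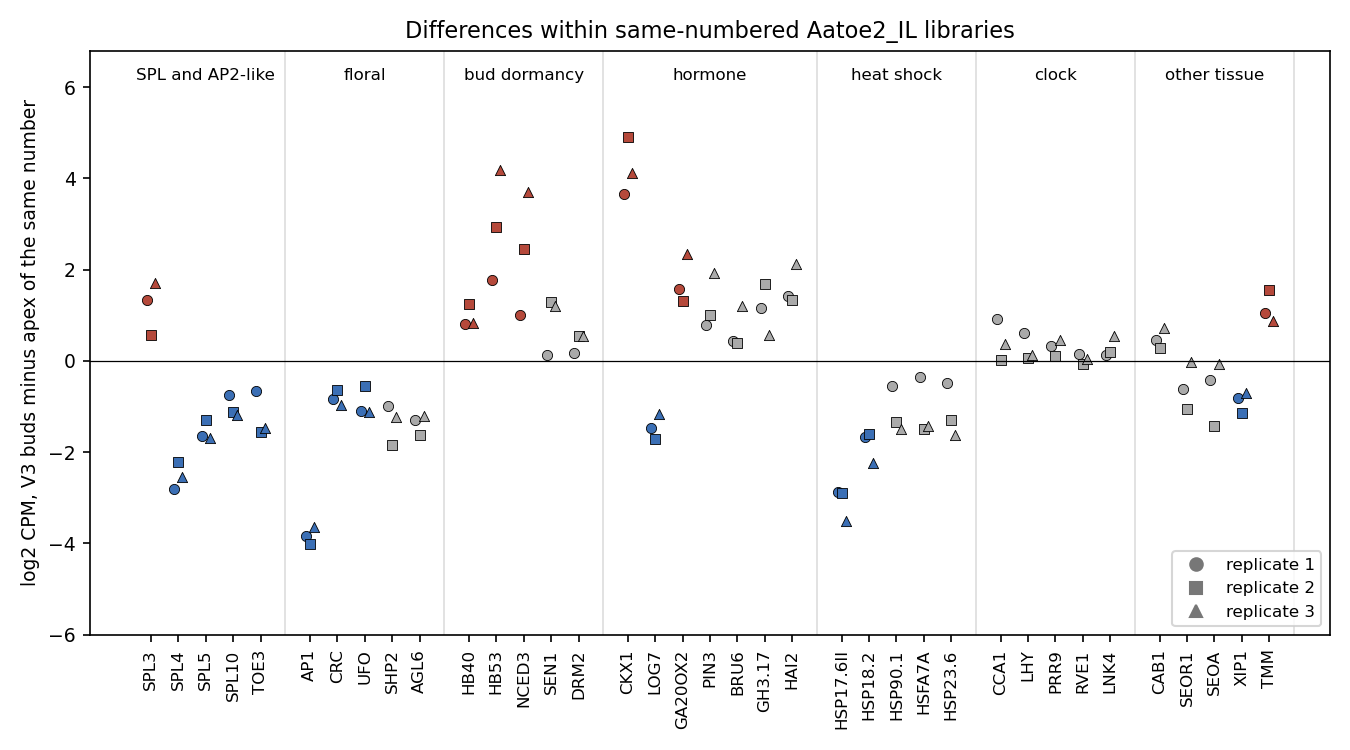
Difference in log2 CPM between V3 bud and apex libraries of the same replicate number in Aatoe2_IL, for named genes in 7 groups. Symbols mark the replicate number, red and blue genes that passed as higher or lower in buds without the block, and grey genes that did not. HSP90.1, HSFA7A and HSP23.6 lie below 0 in all 3 pairs and closest to 0 in replicate 1, while RVE1 lies near 0 in all 3 pairs.

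Metabolic lists gave few calls. None of 15 tested glucosinolate genes passed (median log2 fold change 0.15), and with the block CYP81F3 and SOT18 passed as higher in buds (adjusted p = 0.00180 and 0.0172). IPMI2, the other member with a name, had too few counts to be tested, and CYP79B3 had 0 counts in all 6 libraries. MYBL2 (Aa_G214090h1), a repressor of flavonoid synthesis, rose by 1.46 (adjusted p = 0.0478 by edgeR, SE 0.40), with 2.58, 3.5 and 3.5 CPM in buds, against 1.48, 0.714 and 1.24 CPM in apices. Its call was lost without any single Aatoe2_IL library and without wild-type bud replicate 2 or apex replicate 3. TT7, a hydroxylase of flavonoid synthesis, did not pass (log2 fold change 0.58). Neither named defence gene passed, LOX2 with 1.98 (edgeR, adjusted p = 0.0850) and WRKY40 with 1.97 (edgeR, adjusted p = 0.333), and both did with the block (adjusted p = 2.57e-06 and 0.0119).

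Of 7 named genes of sugar and nitrogen metabolism, CLC-A and ADC1 rose in buds and SUS6 fell, with a median log2 fold change of 0.75. CLC-A (Aa_G229820h1), a vacuolar nitrate transporter, had 52.1, 41.9 and 51.0 CPM in buds, against 34.9, 23.9 and 27.1 CPM in apices (log2 fold change 0.75, SE 0.14, edgeR, adjusted p = 0.00461). ADC1 (Aa_G543430h1), an arginine decarboxylase of polyamine synthesis, had 52.7, 56.5 and 67.6 CPM in buds, against 30.0, 41.9 and 32.9 CPM in apices (log2 fold change 0.76, SE 0.13, edgeR, adjusted p = 0.00249). SUS6 (Aa_G303450h1), a sucrose synthase, had 4.84, 4.07 and 4.70 CPM in buds, against 7.39, 9.99 and 11.0 CPM in apices (log2 fold change -1.06, SE 0.19, edgeR, adjusted p = 0.00403). None of the 3 overlapped between tissues. The nitrate reductase gene NIA1 stood at 88.9, 197 and 265 CPM in buds and 71.7, 114 and 134 CPM in apices (edgeR, adjusted p = 0.148), and passed with the block (adjusted p = 3.55e-05), as did the beta-amylase gene CT-BMY (0.00379).

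Markers of other tissues were few among the named genes. Of 23 green leaf genes 1 had a name, CAB1, a chlorophyll-binding protein gene, at 3034 to 4641 CPM in buds and 2215 to 2996 CPM in apices (edgeR, adjusted p = 0.138, and 0.00199 with the block). The 5 named phloem and vascular genes, of 25, summed to 32.4 to 46.9 CPM in buds and 50.6 to 77.5 CPM in apices, and XIP1 was the 1 that passed. XIP1 (Aa_G17360h1), a receptor kinase gene of vascular tissue, had 8.28, 6.63 and 7.87 CPM in buds, against 14.8, 14.9 and 12.9 CPM in apices (log2 fold change -0.91, SE 0.18, edgeR, adjusted p = 0.00733). SEOA, a sieve element gene, passed with the block (log2 fold change -0.65, adjusted p = 0.0297). TMM (Aa_G389040h1), which patterns stomata and is the 1 named epidermis gene of 25, had 25.1, 21.0 and 24.2 CPM in buds, against 11.9, 7.03 and 13.1 CPM in apices (log2 fold change 1.12, SE 0.21, edgeR, adjusted p = 0.00432). The root gene MGP, 1 of 18, was near 0, at 0.568 to 1.18 CPM in buds and 0.0869 to 0.571 CPM in apices. DYT1 of the tapetum, 1 of 17, was at 1.29 to 4.36 CPM in buds and 0.695 to 9.48 CPM in apices. None of 30 cell division genes had a name. The part of tissue composition in the results above was not tested.

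The largest rises in buds with a name began with AT4G22485 and PRB1, a basic pathogenesis-related protein gene. AT4G22485 had 30.1, 71.5 and 12.8 CPM in buds, against 0.522, 0 and 0.0952 CPM in apices (log2 fold change 7.37, SE 1.26, edgeR, adjusted p = 0.00249). PRB1 had 286 counts in buds, at 3.55, 22.2 and 2.08 CPM, and 2 counts in apices, a ratio of 157 (exact 95% interval 43.0 to 1301; edgeR, adjusted p = 0.00784). The unnamed Aa_G591030h1 had 0 counts in apices and 7.21, 26.9 and 4.15 CPM in buds, at least 142-fold higher against a floor of 3 counts over the group. In these 3 genes bud replicate 2 was the highest. Without it the fitted log2 fold change was 6.54 for AT4G22485, 5.25 in place of 6.97 for PRB1 and 8.92 in place of 10.08 for Aa_G591030h1, and neither AT4G22485 (adjusted p = 0.215) nor PRB1 (0.107) passed limma-voom. AT3G44970 (log2 fold change 5.70), NPF7.2 (4.55), a nitrate transporter gene, AT3G61280 (4.40), CKX1 (4.37, described above) and AT2G34930 (3.90) followed. In apices AT3G44970 had all 4 counts in replicate 1, and AT3G61280 had 1.04 CPM in replicate 1, 0 in replicate 2 and 0.0952 in replicate 3. Without apex replicate 1 the fitted values were 9.29 for AT4G22485, 9.22 for AT3G44970, 7.16 for AT3G61280 and 4.74 for AT2G34930. Without replicate 2 of both tissues they were lower, at 6.03 for AT4G22485, 4.81 for AT3G44970, 3.52 for AT3G61280 and 4.79 for PRB1. AT3G61280 and PRB1 lost their calls there (edgeR, adjusted p = 0.0527 and 0.124). AT1G47980 rose by 2.88, and the unnamed Aa_G103010h1, with 0 counts in apices, was at least 15.7-fold higher in buds.

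Among the largest falls, bZIP58, a leucine zipper factor gene, had 6.13, 6.44 and 2.40 CPM in buds, against 27.0, 30.1 and 30.3 CPM in apices (log2 fold change -2.53, SE 0.35, edgeR, adjusted p = 0.000491). AT1G30160 fell by 2.46 and AT3G12710 by 2.34, and neither overlapped between tissues. AT1G30160 had 2.58, 3.5 and 2.51 CPM in buds, against 13.9, 18.6 and 15.2 CPM in apices. AT3G59845 (log2 fold change -2.68) and AT1G27030 (-2.71) also fell, on 10 counts in buds against 71 in apices and on 4 in buds against 31 in apices. The call of AT3G59845 was lost without any 1 bud library or apex replicate 2. That of AT1G27030 was lost without any 1 bud library, without apex replicate 1 or 2, and without wild-type bud replicate 2 or any 1 wild-type apex library. Without a name, Aa_G92080h1 had 0 counts in buds and 94 in apices, at least 28.6-fold lower, and Aa_G341750h1 had 0 counts in buds and 24 in apices, at least 7.29-fold lower. The call of Aa_G341750h1 was lost without bud replicate 3 or apex replicate 2, where its fitted value was -5.31 in place of -6.03.

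From gene families read by words in the authors' descriptions, which miss members described otherwise, 6 called genes not described above follow. MYB47, a MYB factor gene, rose by 1.68 on the log2 scale, a call lost without apex replicate 3. WRKY57, a WRKY factor gene, rose by 2.75. WRKY57 had 11.9, 2.37 and 6.78 CPM in buds, against 1.65, 0.306 and 1.05 CPM in apices, and its log2 fold change was 2.12 without bud replicate 1. ERF104, an ethylene response factor gene, rose by 2.68, a call lost without bud replicate 3 (2.01), any 1 apex library or wild-type bud replicate 2. OPT7, an oligopeptide transporter gene, rose by 2.46, and by 3.14 without apex replicate 1. EXPA9, an expansin gene of the cell wall, had a log2 fold change of -1.87. The cysteine protease gene CP2 fell by 0.87, a call lost without apex replicate 2. None of 8 genes described as a cytochrome P450 passed.

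The named genes of highest level that rose were AT4G28940, AT3G15450 and AT5G16030. AT4G28940 had 300.3, 169 and 268 CPM in buds, against 168, 90.12 and 113 CPM in apices (log2 fold change 0.99, SE 0.23, edgeR, adjusted p = 0.0200). AT3G15450 rose by 0.87 and AT5G16030 by 0.68. Apart from SPL5 and SPL10, the fall at the highest level was that of AT4G29270, with 70.3, 26.9 and 31.2 CPM in buds, against 114, 76.1 and 83.5 CPM in apices (log2 fold change -1.1, SE 0.26, edgeR, adjusted p = 0.0211). These 4 calls depended on single libraries. AT4G28940 lost its call without bud replicate 1 or 3 or apex replicate 2 or 3, AT5G16030 without apex replicate 3, and AT4G29270 without bud replicate 2 or 3 or apex replicate 1. AT3G15450 lost it without any 1 bud library, apex replicate 2 or 3, wild-type bud replicate 2 or 3, or wild-type apex replicate 2.

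To see where the tissue difference of Aatoe2_IL departs from that of wild type, both were set side by side. The 2 comparisons share no library, but 1 estimate of the spread. In wild type 2184 genes passed (11.2%), and 576 genes were called in the same direction in both, which is 52.0% of the Aatoe2_IL calls and 26.4% of the wild-type calls. Genes called higher in Aatoe2_IL buds had a median log2 fold change of 0.98 in Aatoe2_IL and 0.55 in wild type, and 514 of 619 had the same sign. Genes called lower had medians of -1.04 in Aatoe2_IL and -0.87 in wild type, and 462 of 488 had the same sign. Each set was picked by its call in 1 genotype, so that these sizes only describe it. Wild-type calls had medians of 0.29 in Aatoe2_IL against 0.71 in wild type for rises, and of -0.34 in Aatoe2_IL against -0.91 in wild type for falls. Across the 19520 genes Pearson's r of the log2 fold changes was 0.614 and Spearman's rho 0.282, as a description, since genes are not independent.

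The difference itself passed for 202 genes (1.03%), 149 with a higher and 53 with a lower value in Aatoe2_IL. Of these, 119 had opposite signs in the genotypes, 70 the same sign with the smaller size in Aatoe2_IL and 13 the same sign with the larger size in Aatoe2_IL. With the replicate block 1986 genes passed. Without single libraries between 40 and 391 genes did, so that this number rests on few samples. The named genes below come from the authors' lists of genes that differed between the genotypes, so that their passing is not independent of this test. SUS6 and XIP1 were lower in buds in both genotypes and less so in Aatoe2_IL, with log2 fold changes of -1.06 and -0.91 in Aatoe2_IL, against -3.43 and -3.12 in wild type (edgeR adjusted p of the difference 0.00357 and 0.00275). SPL5 also had the smaller fall in Aatoe2_IL, -1.51 against -3.39 in wild type (0.0204), a call lost without Aatoe2_IL apex replicate 3, wild-type bud replicate 2 or wild-type apex replicate 3. KNATM had the smaller rise, 1.47 in Aatoe2_IL against 3.85 in wild type (0.00811). CNGC4, an ion channel gene, and the glucosinolate oxygenase gene FMOGS-OX6 did not pass between tissues in Aatoe2_IL, with values of -0.23 and 0.46, and had -2.19 and 2.28 in wild type (difference 0.00587 and 0.00897). AT3G15240, likewise not called in Aatoe2_IL at -0.44, had 2.17 in wild type (0.0138).

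TCP4, tcp10 and TCP24 had log2 fold changes of 1.4, 1.71 and 1.19 in Aatoe2_IL, against -0.07, 0.37 and 0.12 in wild type, where none passed. The difference passed for all 3 (edgeR, adjusted p = 0.0289, 0.0295 and 0.0327). Each of these calls was lost without Aatoe2_IL bud replicate 1 or 3, Aatoe2_IL apex replicate 2 or 3, wild-type bud replicate 2 or wild-type apex replicate 2 or 3, and that of TCP24 also without wild-type bud replicate 3. TMM had 1.12 in Aatoe2_IL, against -0.49 in wild type (edgeR adjusted p of the difference 0.0210), a call lost without Aatoe2_IL bud replicate 1 or 3, wild-type bud replicate 2 or wild-type apex replicate 2 or 3. CKX1 had 4.37 in Aatoe2_IL and 4.21 in wild type, a difference of 0.15 that lay between -0.29 and 1.23 without single libraries (adjusted p = 0.935 by edgeR, SE 0.58). For HB53 (-1.52), HB40 (-0.66), SPL4 (1.27) and TOE3 (1.14) the difference did not pass either (edgeR, adjusted p = 0.220, 0.262, 0.139 and 0.215). With the replicate block it passed for SPL4 and TOE3 (edgeR, adjusted p = 0.00592 and 0.0246).

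Opposite calls in the 2 genotypes were made for 14 genes, and this count was between 4 and 27 without single libraries and 123 with the block. Of 10 with a name, CLC-A, ADC1, ALDH11A3, ABCC10, AT5G44680 and AT1G02810 were higher in Aatoe2_IL buds and lower in wild-type buds than in the apices of their genotype, and UFO, WRKY13, DUF2 and AT1G23000 the reverse. UFO averaged 8.87 ± 1.98 CPM in buds and 16.8 ± 2.52 CPM in apices of Aatoe2_IL, against 31.8 ± 3.29 CPM in buds and 13.2 ± 2.79 CPM in apices of wild type (SD, n = 3 each). ADC1 averaged 58.9 ± 7.71 CPM in buds and 34.9 ± 6.20 CPM in apices of Aatoe2_IL, against 17.1 ± 1.74 CPM in buds and 35.3 ± 0.439 CPM in apices of wild type. For both, the apex means of the genotypes lay closer together than the bud means. The aldehyde dehydrogenase gene ALDH11A3 averaged 60.5 ± 15.9 CPM in buds and 36.2 ± 2.19 CPM in apices of Aatoe2_IL, against 23.2 ± 3.16 CPM in buds and 41.8 ± 4.74 CPM in apices of wild type. WRKY13 averaged 17.5 ± 1.52 CPM in buds and 27.7 ± 3.28 CPM in apices of Aatoe2_IL, against 37.6 ± 7.84 CPM in buds and 25.9 ± 3.96 CPM in apices of wild type. In Aatoe2_IL, AT5G44680 and AT1G23000 lost their calls without bud replicate 1 or 3 or apex replicate 3. DUF2 lost its call without any 1 bud library or apex replicate 2 or 3, ABCC10 without any 1 Aatoe2_IL library but bud replicate 2, and WRKY13 without any 1 but apex replicate 2. AT1G02810 lost it without any 1 Aatoe2_IL library and without wild-type bud replicate 2 or wild-type apex replicate 2 or 3. The largest opposite change without a name was that of Aa_G109270h1, with a log2 fold change of -1.32 in Aatoe2_IL and 0.88 in wild type.

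**Figure D4:**
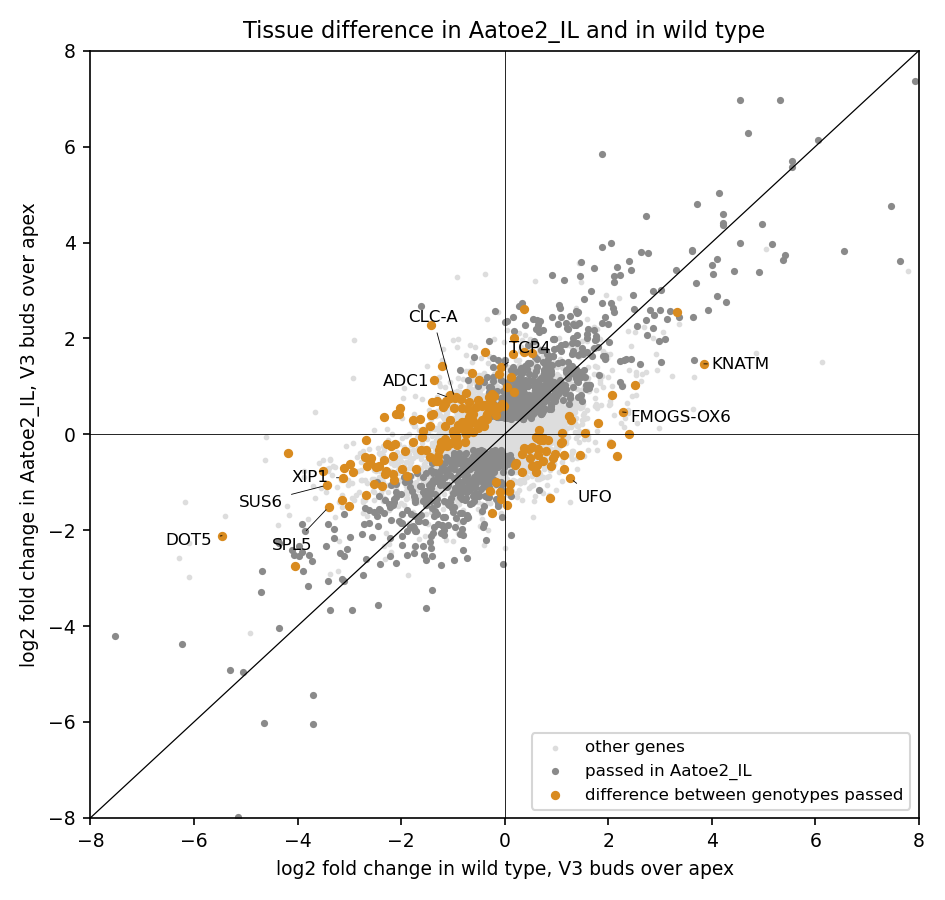
Fitted log2 fold change of V3 buds over apex in Aatoe2_IL (vertical) against that in wild type (horizontal) for the genes tested. Orange points (202) passed the test of the difference between genotypes, dark grey points passed between the tissues in Aatoe2_IL but not that test, and the line marks equal values. UFO, CLC-A and ADC1 lie in quadrants of opposite sign, and 4 genes fall outside the axes.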

How the data were processed

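Poly(A) RNA was sequenced as single reads of directional libraries, per the labels' protocols. The authors deposited raw read counts per gene for 12 libraries. STAR, HTSeq 0.5.4p1, DESeq and DESeq2 are named in the submitters' processing notes. The genome build is not given in the sources used here. The authors also deposited 4 tables of genes differing between Aatoe2_IL and wild type, holding mean normalised signal, fold change as a ratio, log2 fold change and adjusted p-values, per the file headers. These 4 tables were used only for names: all 732 entries, 627 genes, matched 1 copy of an identifier by group means within 0.5%, and 446 genes carried an Arabidopsis orthologue.

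Here the rows of reads outside genes (13.4% to 21.5% of reads) were dropped. Counts were filtered with filterByExpr, scaled by TMM and tested with edgeR 4.0.16 (quasi-likelihood F test, R 4.3.3) in 1 fit of 12 libraries in 4 groups, with 8 residual degrees of freedom and Benjamini-Hochberg adjustment at 0.05. An SE is the absolute log2 fold change over the square root of F. Intervals (95%) and floors (3 counts) cover counting error only. On simulated data with 19328 genes, the buds against apex test in Aatoe2_IL recovered 79 of 100 genes changed 2-fold and 94 of 99 changed 4-fold, with 6 false calls. The simulated libraries were drawn independently, without the deviations that same-numbered libraries share here, so that these figures do not cover them. Alternatives used other scalings, filters, DESeq2 1.42.0, limma-voom (limma 3.58.1), a share-outside-genes covariate, a replicate block, Aatoe2_IL libraries alone and fewer libraries.

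Deviations from group means correlated between buds and apex of the same number at 0.415, 0.320 and 0.239 in Aatoe2_IL, and at most at 0.056 otherwise, so the numbers were taken as pairing there. Such deviations cancel out within a group, so that high same-number values lower the others, which are no separate support. In wild type the same-number values were 0.355, 0.062 and 0.248. Bud replicate 3 with apex replicate 2 reached 0.144, so that pairing by number is less clear in wild type. Blocked values come from the fit of 12 libraries unless stated, which blocks wild type by number too. Blocked wild-type calls, genotype differences, shared and opposite calls therefore also rest on the wild-type pairing.

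The genes and lists were chosen with earlier results of these data known. Named were called list members, the 8 largest rises and falls with separate groups, the 3 called genes of highest level in each direction, up to 2 unnamed rises and falls, the 5 strongest genotype differences in each direction, and the largest call of each family.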

Additional observations from a re-analysis of the deposited data

Results flagged for a closer look

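The tissue difference (log2 fold change of V3 buds over apex) differed between Aatoe2_IL and wild type by edgeR's interaction test for 27 of the genes given in the report or in the lists. The values below are Aatoe2_IL minus wild type on the log2 scale. Over all genes tested 1.03% passed. The genes come from the authors' lists of genes that differed between the genotypes in these libraries, so that their number is not independent of this test.

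Among genes of flowering, meristems and leaf development the difference was 1.88 for SPL5, 1.34 for CRC, -2.18 for UFO, -2.38 for KNATM, 3.34 for DOT5, 1.47 for TCP4, 1.34 for tcp10, 1.07 for TCP24 and 1.61 for TMM. Of the 5 named phloem and vascular genes, out of 25 in the list, 4 passed. Their values were higher in Aatoe2_IL, with 2.22 for XIP1, 2.03 for SEOR1, 1.99 for SEOA and 2.75 for FTIP1. In metabolism and transport the difference was 2.37 for SUS6, 1.72 for CLC-A, 1.80 for ADC1, 1.59 for ALDH11A3, 1.6 for ABCC10, 1.96 for CNGC4 and -1.81 for FMOGS-OX6. The remaining genes were WRKY13 with -1.21, DUF2 with -1.39, AT3G15240 with -2.62, AT5G44680 with 2.65, AT1G23000 with -1.27, AT1G02810 with 1.11 and the unnamed Aa_G109270h1 with -2.20.

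Calls of 13 of these genes were kept without each single library. Besides those named in the report, CRC lost its call without Aatoe2_IL bud replicate 2 or 3, Aatoe2_IL apex replicate 1 or 2, wild-type bud replicate 2 or 3 or wild-type apex replicate 2 or 3. DOT5 lost it without any 1 Aatoe2_IL bud library, Aatoe2_IL apex replicate 2 or 3, wild-type bud replicate 2 or 3 or wild-type apex replicate 3. SEOA lost it without Aatoe2_IL bud replicate 1 or 3, Aatoe2_IL apex replicate 3, wild-type bud replicate 2 or wild-type apex replicate 2 or 3. FTIP1 lost it without any 1 library except Aatoe2_IL apex replicate 2, wild-type bud replicate 1 and wild-type apex replicate 1. WRKY13, ABCC10, AT5G44680, AT1G02810 and DUF2 lost it without between 5 and 8 single libraries, among them for each gene Aatoe2_IL bud replicate 3, Aatoe2_IL apex replicate 3, wild-type bud replicate 2 and wild-type apex replicate 2.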

How the results depend on the processing

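Of 63 genes given one by one and called between Aatoe2_IL V3 buds and apices, 40 kept the call without each single library. Under each other scaling, filter, tool, covariate, block or fit of the Aatoe2_IL libraries alone, 53 kept it. Without replicate 1, 2 or 3 of both tissues of Aatoe2_IL, 13, 25 and 35 of the 63 lost it. The depth of 9411616 to 11402861 reads in genes per library leaves genes under 1 CPM on few counts. With the replicate block in 12 libraries all 1107 calls were kept, and 23 of 42 uncalled genes given one by one gained a call. With the block in the 6 Aatoe2_IL libraries 1076 of the 1107 were called. SHP2, SEOR1 and the heat shock factor gene HSFA7B passed with the block in 6 libraries (edgeR, adjusted p = 0.0248, 0.0147 and 0.0157) and not with that in 12.

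With the replicate block, 2378 genes passed in place of 1107 in the fit of 12 libraries (1353 higher, 1025 lower) and 3155 in that of 6 (1793 higher, 1362 lower), wild-type calls numbered 4824 in place of 2184, genotype differences 1986 in place of 202, shared calls 1189 in place of 576 and opposite calls 123 in place of 14. At adjusted p under 0.01 these were 530 genes (273 higher, 257 lower; 351 at least 2-fold), 1072 in wild type, 23, 293 and 3. The covariate gave 970 higher genes, 409 differences and 34 opposite calls; DESeq2 gave 576 differences and limma-voom 128.

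Leaving out single libraries gave 629 to 1369 genes (325 to 773 higher, 297 to 596 lower, 369 to 626 at least 2-fold), 1258 to 2455 in wild type, 40 to 391 differences, 392 to 580 shared and 4 to 27 opposite calls. Without replicate 2 of both tissues 436 genes passed (241 higher, 195 lower, 316 at least 2-fold, 280 shared) and without replicate 3 of both 344 (167 higher, 177 lower, 248 at least 2-fold, 266 shared). Without replicate 1, 2 or 3 of both, 43, 74 and 15 differences and 6, 8 and 1 opposite calls were left.

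Signs turned for 11 of the 42 genes examined under every setting and not called in Aatoe2_IL. PRR9, LNK4, ERD10 and HSFA7B, named above for the block in 6 libraries, were not among the 42, and their signs turned too. Over the alternatives their log2 fold changes ranged over -0.12 to 0.80, -0.30 to 1.02, -0.26 to 0.80 and -0.99 to 0.15. CNGC4 was at 0.0554 and GA2OX4 at -0.0796 without replicate 2 of both tissues. VIN3 was at -0.14 with limma-voom, -0.0862 and -0.0639 with the replicate block in 12 and 6 libraries, -0.0219 with the covariate and -0.30 without replicate 3 of both tissues. HSFA2 was at 0.00169 with limma-voom, 0.18 with the covariate and 0.00124 without replicate 2 of both tissues. RVE1 was at -0.0280 with DESeq2, -0.00323 with the replicate block in 6 libraries, and -0.0300 and -0.0172 without replicate 1 or 3 of both tissues. RAB18 was at -0.15 without replicate 3 of both tissues. Without single libraries CCA1 ranged over -0.57 to 1.25, VIN3 over -0.62 to 0.43, LHY over -0.25 to 0.81, RVE1 over -1.04 to 1.12, HSFA2 over -0.66 to 0.37, RAB18 over -0.25 to 1.68, KIN2 over -0.0681 to 0.28, CYP81F3 over -0.0816 to 2.22 and CT-BMY over -0.19 to 1.49. The genotype difference of CKX1 ranged over -0.29 to 1.23 without single libraries and was -0.12 without replicate 2 of both tissues. The cause was not tested.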
